A study of Mus musculus with 4 samples.

Results

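Fractalkine and a set of chemokine receptors were followed in cultured macrophages that had been grown from mouse bone marrow. The 6 genes were taken by symbol: Cx3cl1, which encodes fractalkine, and the receptor genes Cx3cr1, Ccr1, Ccr2, Ccrl2 and Cxcr4. All 6 were found among the 23284 gene rows of each library. Poly(A) RNA was sequenced in 4 libraries, 1 for each combination of genotype and LPS (lipopolysaccharide), a bacterial product sensed through Toll-like receptor 4. The groups were Spic-/- cells with LPS, Spic-/- cells without LPS, control (Spic+/+) cells with LPS and control cells without LPS. LPS was given at 100 ng/ml, for 4 h. All cultures, controls included, had first received hemin, the oxidised form of heme, at 40 µM for 18 h, although the sample descriptions give that dose in mM. Spic encodes Spi-C, a heme-inducible transcription factor of the Ets family. By its abbreviation in the sample titles the knockout is conditional, but the allele, any Cre driver and the number of animals are not stated in the labels. The study asked whether Spi-C lowers part of the Toll-like receptor response. With 1 library in each group no difference has a replicate check, so no test, SD or p-value is given.

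Chemokines are small secreted proteins that direct leukocyte movement through receptors of the G protein-coupled family. Ccr2 lets monocytes leave the marrow and follow Ccl2, Ccl7 and Ccl12. Ccr1 responds to Ccl3, Ccl5 and related chemokines, and Cxcr4 holds cells at sources of Cxcl12. Cx3cr1, a receptor typical of patrolling monocytes and resident macrophages, binds fractalkine, which is made as a membrane-anchored protein and shed by the proteases Adam10 and Adam17. Ccrl2 is an atypical receptor: it binds chemerin without signalling through G proteins and presents it to the signalling receptor Cmklr1.

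The deposited unit was FPKM, a fragment count divided by exon length and library size. The spacing between low values put 1 FPKM at about 8.08 fragments per kilobase in Spic-/- cells with LPS, 12.96 in Spic-/- cells without LPS, 10.6 in control cells with LPS and 15.7 in control cells without LPS. Intervals are exact 95% intervals from these estimated fragments, and they cover counting error only. Spic stood at 80.8 FPKM in Spic-/- cells with LPS against 406 FPKM in control cells with LPS, and at 14.98 FPKM in Spic-/- cells without LPS against 53.1 FPKM in control cells without LPS. The knockout libraries therefore kept some Spic signal. All 8 macrophage markers found in the files reached 1 FPKM. Markers of T and NK cells and of dendritic cells stayed under 1 FPKM throughout, and of 8 endothelial markers 1 reached 1 FPKM. Stromal and fibroblast markers were present, with a summed level of 352 FPKM in Spic-/- cells with LPS, 301 FPKM in Spic-/- cells without LPS, 608 FPKM in control cells with LPS and 564 FPKM in control cells without LPS. In bulk libraries of this kind, fewer cells of a type and less RNA per cell cannot be told apart.

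The promoters of the 3 genes with the largest responses to LPS are shown because Ccrl2 and Cx3cl1 were higher with LPS while Cxcr4 was lower. Each runs from 250 bases before to 50 bases after a RefSeq transcript start (GRCm38.p6), 5′ to 3′ on the strand of the gene. Capitals mark matches to any of 5 motifs searched on both strands: the NF-kB consensus of 10 letters, the Ets core GAGGAA, an interferon response element (GAAA repeated after 2 bases of any kind), the AP-1 site TGANTCA and the TATA box TATAAA. The Ccrl2 window is chr9:111057469-111057768 on the minus strand, the Cx3cl1 window is chr8:94771930-94772229 on the plus strand, and the Cxcr4 window is chr1:128592250-128592549 on the minus strand.
Ccrl2: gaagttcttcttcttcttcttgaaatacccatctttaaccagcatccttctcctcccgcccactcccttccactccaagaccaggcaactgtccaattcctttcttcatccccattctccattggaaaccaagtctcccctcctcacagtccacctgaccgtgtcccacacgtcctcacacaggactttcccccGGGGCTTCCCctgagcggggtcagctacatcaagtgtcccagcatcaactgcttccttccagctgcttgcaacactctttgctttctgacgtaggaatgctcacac
Cx3cl1: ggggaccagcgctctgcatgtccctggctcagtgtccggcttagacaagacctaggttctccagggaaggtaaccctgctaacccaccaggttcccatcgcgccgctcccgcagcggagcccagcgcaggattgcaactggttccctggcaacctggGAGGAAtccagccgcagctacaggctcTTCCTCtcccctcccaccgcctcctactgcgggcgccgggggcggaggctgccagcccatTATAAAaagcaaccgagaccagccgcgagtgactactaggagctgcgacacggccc
Cxcr4: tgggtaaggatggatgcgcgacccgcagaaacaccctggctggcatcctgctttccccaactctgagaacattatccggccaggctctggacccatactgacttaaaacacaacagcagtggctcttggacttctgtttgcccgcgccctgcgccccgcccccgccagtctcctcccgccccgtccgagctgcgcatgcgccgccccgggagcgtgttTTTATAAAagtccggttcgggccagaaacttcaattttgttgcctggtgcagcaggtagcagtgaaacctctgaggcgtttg
The Ccrl2 window holds an NF-kB consensus match 56 bases upstream of the start, a motif found in 8.46% of 32851 promoter windows of the same length. Ccrl2 has 3 annotated starts, and the windows of the other two hold no match to the 5 motifs. In the Cx3cl1 window the Ets core, found in 28.3% of windows, matches 93 bases upstream and, on the opposite strand, 66 bases upstream, and a TATA box lies 6 bases upstream of this start. In the Cxcr4 window the TATA box matches 32 and 30 bases upstream as overlapping matches on opposite strands. The TATA box letters occur in 13.6% of windows. Of the windows not shown, that of Ccr1 holds an NF-kB consensus match and an Ets core match, and those of Ccr2 and Cx3cr1 hold no match to the 5 motifs. These matches describe letters and not binding.

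The ranking of the 6 genes by FPKM was the same in both genotypes within each LPS state. With LPS, Ccrl2 was the highest, followed by Cx3cl1, Ccr1, Ccr2, Cx3cr1 and Cxcr4. Without LPS, Ccr1 was the highest, followed by Cxcr4, Ccr2, Cx3cr1, Ccrl2 and Cx3cl1. Ccrl2 and fractalkine thus held the highest places with LPS and the lowest without it. Counting intervals overlapped between Cx3cr1 and Cxcr4 in both libraries with LPS, where Cxcr4 rested on about 5 fragments in Spic-/- cells and 7 in control cells. Without LPS they overlapped between Cxcr4 and Ccr2 in both genotypes, between Ccr2 and Cx3cr1 in Spic-/- cells, and between Cx3cr1, Ccrl2 and Cx3cl1, each with its next neighbour, in control cells.

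**Figure D1:**
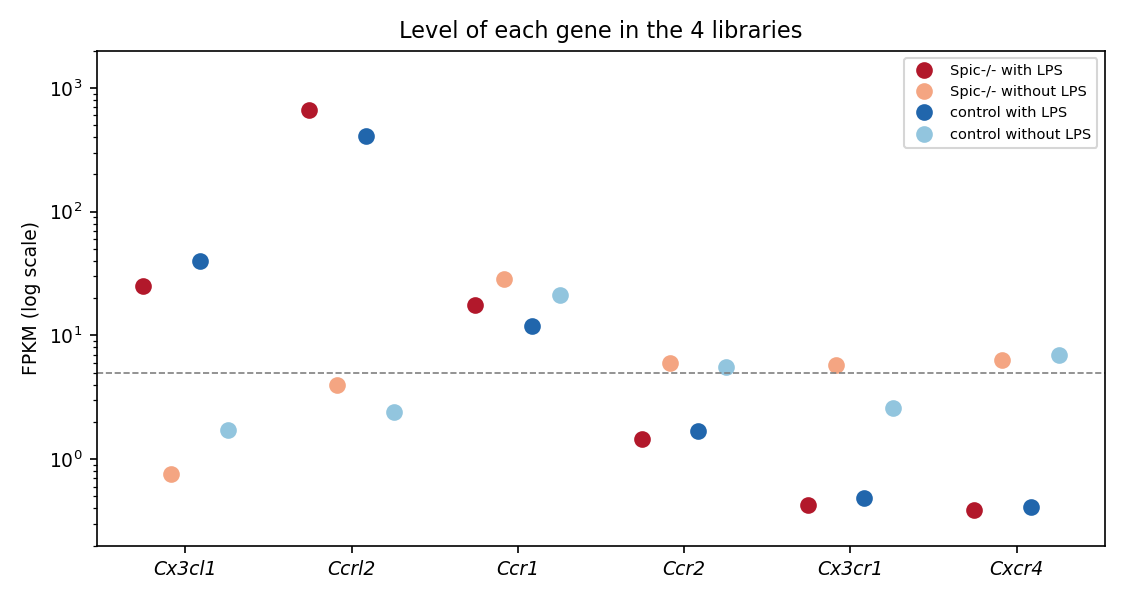
FPKM (log axis) of the 6 genes in the 4 libraries, 1 point per library, with the 5 FPKM minimum as a dashed line. Ccrl2 stands at 666 and 412 FPKM in the Spic-/- and control libraries with LPS and under 5 FPKM in both without LPS, while Cxcr4 stands at 0.386 and 0.411 FPKM with LPS.

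In Spic-/- cells, LPS went with higher Ccrl2 and Cx3cl1 and with lower Ccr2, Cx3cr1 and Cxcr4. A gene was counted when it was at least 2-fold apart on the scale of log2(FPKM + 1) and reached 5 FPKM in at least 1 of the 2 libraries. By that rule 2 of the 6 genes were higher and 3 lower in Spic-/- cells, where 21.4% of 8098 genes were called, 13.7% higher and 7.74% lower. In control cells 5 of the 6 genes reached the minimum, and 2 were higher and 2 lower, where 18.8% of 8050 genes were called, 12.3% higher and 6.5% lower. The median log2 ratio of the genes that reached the minimum was −1.08 in Spic-/- cells and −0.78 in control cells, against 0.12 and 0.11 over all genes. The 2 LPS responses share no library.

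Fractalkine is the one ligand among the 6 genes. Cx3cl1 stood at 24.95 FPKM in Spic-/- cells with LPS against 0.763 FPKM in Spic-/- cells without LPS, and at 40.2 FPKM in control cells with LPS against 1.72 FPKM in control cells without LPS. Both values with LPS lay far above both values without it. The FPKM ratio was 32.7 (interval 22.6 to 48.1) in Spic-/- cells and 23.3 (18.6 to 29.3) in control cells. On the scale of log2(FPKM + 1) the ratios were 3.88 and 3.92, ranking 120th of 8098 genes and 113th of 8050 genes from the highest.

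Ccrl2, the atypical receptor, had the largest ratio of the 6 genes. It stood at 666 FPKM in Spic-/- cells with LPS against 3.98 FPKM in Spic-/- cells without LPS, and at 412 FPKM in control cells with LPS against 2.39 FPKM in control cells without LPS. The FPKM ratio was 167 (136 to 211) in Spic-/- cells and 173 (134 to 225) in control cells, and the intervals overlap. The log2 ratios of 7.07 and 6.93 ranked 16th and 21st from the highest among all genes that reached the minimum. With LPS its level exceeded 98.6% of the genes above 0 in Spic-/- cells and 98.0% of them in control cells, against 42.8% and 36.9% without LPS. Cmklr1, the signalling chemerin receptor, differed much less, at 15.6 FPKM in Spic-/- cells with LPS against 9.99 FPKM without LPS and at 12.4 FPKM in control cells with LPS against 7.91 FPKM without LPS. Rarres2, the chemerin gene, stood at 6.69 FPKM against 4.48 FPKM in Spic-/- cells and at 9.24 FPKM against 7.93 FPKM in control cells, with LPS named first in each pair.

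The signalling receptors went the other way. Cxcr4 stood at 0.386 FPKM in Spic-/- cells with LPS against 6.35 FPKM in Spic-/- cells without LPS, and at 0.411 FPKM in control cells with LPS against 6.93 FPKM in control cells without LPS. The libraries without LPS were thus 16.5-fold (6.82 to 51.1) higher in Spic-/- cells and 16.9-fold (7.96 to 42.3) higher in control cells. The log2 ratios, −2.41 and −2.49, ranked 74th and 55th from the lowest.

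Cx3cr1, the fractalkine receptor, stood at 0.422 FPKM in Spic-/- cells with LPS against 5.77 FPKM in Spic-/- cells without LPS. In control cells it stood at 0.482 FPKM with LPS against 2.60 FPKM without LPS, so the control pair did not reach the minimum. The FPKM ratio was 0.0732 (0.0345 to 0.137) in Spic-/- cells and 0.186 (0.1001 to 0.316) in control cells. Both genotypes had about equally low values with LPS, on about 10 fragments in Spic-/- cells and 15 in control cells. In each genotype the ligand Cx3cl1 was high in the library where its receptor was low.

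Ccr2, the Ccl2 receptor of monocytes, stood at 1.47 FPKM in Spic-/- cells with LPS against 5.94 FPKM in Spic-/- cells without LPS, and at 1.70 FPKM in control cells with LPS against 5.60 FPKM in control cells without LPS. The FPKM ratio was 0.247 (0.152 to 0.376) in Spic-/- cells and 0.304 (0.207 to 0.434) in control cells. With a pseudocount of 5 FPKM the log2 ratios of Ccr2 (−0.76 and −0.66), and that of Cx3cr1 in Spic-/- cells (−0.99), were under 2-fold. Ccr1 was lower with LPS by less than 2-fold: 17.8 FPKM with LPS against 28.6 FPKM without LPS in Spic-/- cells, and 11.9 FPKM with LPS against 21.3 FPKM without LPS in control cells. Its log2 ratios were −0.66 and −0.78, and upper-quartile scaling took the control value past 2-fold, to −1.02.

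**Figure D2:**
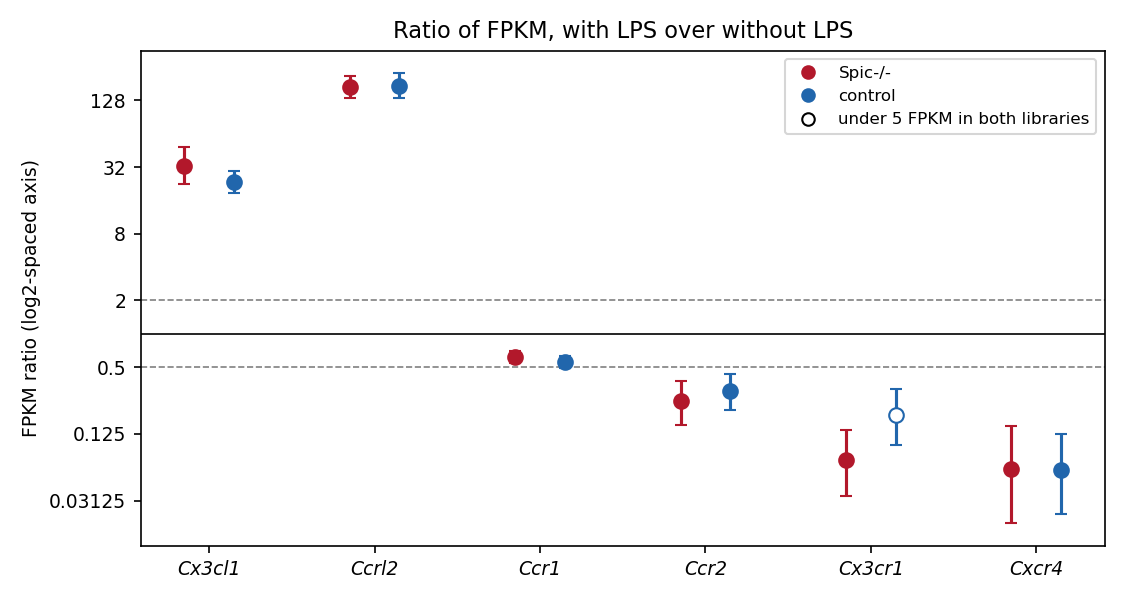
Ratio of FPKM with LPS over without LPS (log2-spaced axis) for each gene, in Spic-/- and in control cells, with exact 95% counting intervals. Open points mark pairs under 5 FPKM in both libraries, and dashed lines mark 2-fold. Ccrl2 stands at 167 and 173, and Cxcr4 at 0.0608 and 0.0593.

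Between genotypes the 6 genes differed less than with LPS. None of them was at least 2-fold apart by the counting rule, either with LPS, where 3 of the 6 genes reached the minimum and 0.892% of 7509 genes were called (0.493% higher and 0.4% lower), or without LPS, where 4 reached it and 0.902% of 7762 genes were called (0.49% higher and 0.412% lower). The central 95% of all genes had log2 ratios from −0.49 to 0.60 with LPS and from −0.37 to 0.49 without LPS. Ccrl2 and Ccr1 were somewhat higher in Spic-/- cells, Cx3cl1 was lower, and Cx3cr1 was higher without LPS alone. These comparisons share libraries with the LPS comparisons.

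Cx3cl1 stood at 24.95 FPKM in Spic-/- cells against 40.2 FPKM in control cells with LPS, and at 0.763 FPKM in Spic-/- cells against 1.72 FPKM in control cells without LPS. The FPKM ratio of Spic-/- over control was 0.621 (0.564 to 0.684) with LPS and 0.443 (0.285 to 0.681) without LPS. Fractalkine is also made by stromal and endothelial cells in other settings. The summed stromal and fibroblast markers had ratios of 0.579 with LPS and 0.535 without LPS in the same pairs, and 8 of the 10 markers were lower in Spic-/- cells in each state. Among them the smooth muscle actin gene Acta2 stood at 118 FPKM in Spic-/- cells against 243 FPKM in control cells with LPS. The 7 neutrophil markers in the files summed to 131 FPKM in Spic-/- cells and 242 FPKM in control cells with LPS, and to 31.4 and 41.4 FPKM without LPS. These sums were mostly S100a8 and S100a9. Of the 7 markers, 3 were lower in Spic-/- cells with LPS and 4 without LPS, and Mpo was at 0 in every library. The 8 endothelial markers summed to 1.74 FPKM in Spic-/- cells and 1.82 FPKM in control cells with LPS, and to 1.57 and 1.95 FPKM without LPS. Kdr was the highest of them, at up to 1.13 FPKM, followed by Vwf at up to 0.825 FPKM, and Cldn5 was at 0 in every library. The part of stromal, neutrophil or endothelial cells in the Cx3cl1 values was not tested.

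Ccrl2 was higher in Spic-/- cells in each state, at 666 FPKM against 412 FPKM in control cells with LPS and at 3.98 FPKM against 2.39 FPKM in control cells without LPS. The FPKM ratio was 1.62 (1.57 to 1.67) with LPS and 1.67 (1.18 to 2.34) without LPS. Its log2 ratio with LPS, 0.69, ranked 129th of 7509 genes from the highest. Ccr1 was at 17.8 FPKM in Spic-/- cells against 11.9 FPKM in control cells with LPS, and at 28.6 FPKM against 21.3 FPKM without LPS. Those are FPKM ratios of 1.49 (1.28 to 1.73) and 1.34 (1.23 to 1.48), and log2 ratios of 0.54 and 0.41. Of the 8 macrophage markers, 7 were also higher in Spic-/- cells with LPS and 6 without LPS. Their median log2 ratios were 0.26 and 0.27. Their summed level went the other way, with ratios of Spic-/- over control of 0.880 with LPS and 0.769 without LPS. Lyz2, the highest of them, was lower in Spic-/- cells. It stood at 3419 FPKM against 5620 FPKM in control cells with LPS, and at 4014 FPKM against 6340 FPKM without LPS. The part of cell content in the Ccr1 and Ccrl2 values was not tested.

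Cx3cr1 was higher in Spic-/- cells without LPS. It stood there at 5.77 FPKM in Spic-/- cells against 2.60 FPKM in control cells, an FPKM ratio of 2.22 (1.77 to 2.79). On the scale of log2(FPKM + 1) the ratio was 0.91, just under 2-fold, and ranked 45th of 7762 genes from the highest. A pseudocount of 0.1 FPKM took it to 1.12 and one of 5 FPKM to 0.50. With LPS the value was 0.422 FPKM in Spic-/- cells against 0.482 FPKM in control cells, a ratio of 0.876. Its interval (0.352 to 2.08) spans 1 and includes 2-fold in each direction.

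Ccr2 and Cxcr4 gave intervals that span 1 in each state. The FPKM ratio of Ccr2 was 0.862 (0.488 to 1.46) with LPS and 1.06 (0.851 to 1.32) without LPS. That of Cxcr4 was 0.939 (0.235 to 3.44) with LPS and 0.916 (0.724 to 1.15) without LPS. The intervals with LPS are wide because few fragments were counted, so differences of 2-fold for Cxcr4 were not detectable there. The Ccr2 interval with LPS also includes a 2-fold lower value in Spic-/- cells.

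**Figure D3:**
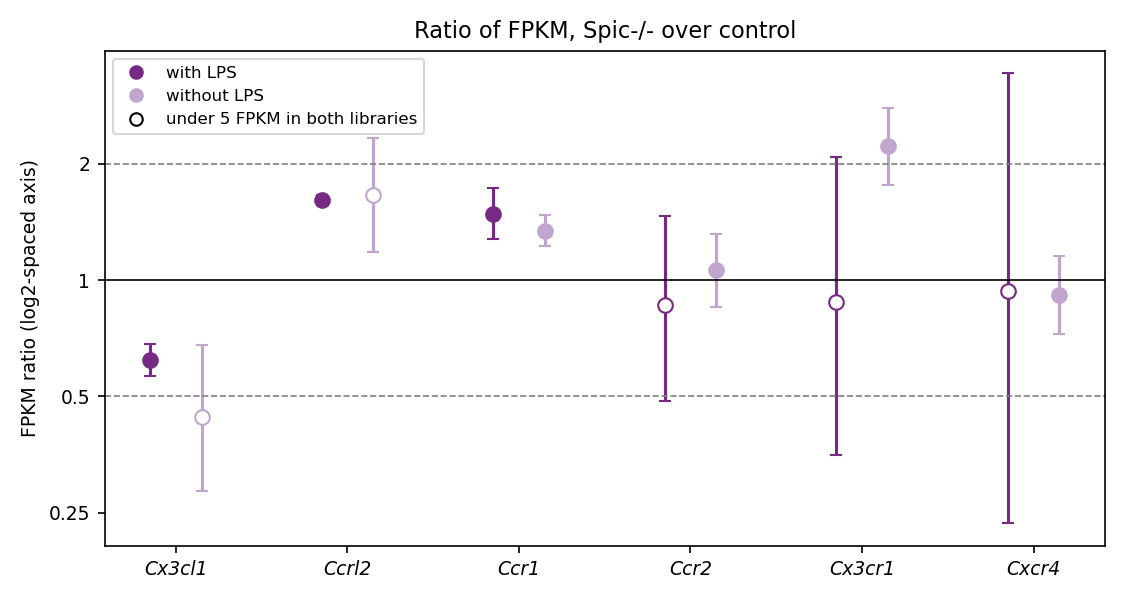
Ratio of FPKM of Spic-/- over control (log2-spaced axis) for each gene, with and without LPS, with exact 95% counting intervals. Open points mark pairs under 5 FPKM in both libraries, and dashed lines mark 2-fold. Cx3cl1 lies below 1 in each state (0.621 and 0.443), Ccrl2 and Ccr1 lie above 1, and Cx3cr1 reaches 2.22 without LPS.

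The LPS responses were set against each other as the difference of log2 ratios, Spic-/- minus control. None of the 6 genes reached a difference of 2-fold, and 0.822% of 8272 genes did. Cx3cr1 came nearest, at −0.97, below all but 0.447% of genes, and passed 2-fold with a pseudocount of 0.1 FPKM. The differences were −0.20 for Ccr2, −0.04 for Cx3cl1, 0.08 for Cxcr4, 0.13 for Ccr1 and 0.13 for Ccrl2. The direction turned with the pseudocount for Cx3cl1, at 0.39 with 0.1 FPKM and −0.37 with 5 FPKM, and for Ccrl2, at −0.02 and 0.40. No replicate error is available for any of these differences.

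Other chemokine receptors outside the 6 genes were mostly low. Of 21 listed, 16 stayed under 1 FPKM in every library, and 5 of these were listed at 0 throughout. Ccr3, the eotaxin receptor, stood at 14.5 FPKM in Spic-/- cells with LPS against 11.8 FPKM without LPS, and at 10.4 FPKM in control cells with LPS against 8.53 FPKM without LPS. Neither Ccr3 nor Cmklr1 was 2-fold apart in any of the 4 comparisons. Their LPS log2 ratios were 0.27 and 0.60 in Spic-/- cells and 0.26 and 0.59 in control cells. Ccr7, the receptor that takes dendritic cells to lymph nodes, was at no more than 0.427 FPKM.

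Ligands of these receptors were largely higher with LPS. In each genotype LPS went with at least 2-fold higher values of 7 of 12 ligand genes and with no such lower value, with a median log2 ratio of 2.40 in Spic-/- cells and 2.66 in control cells. Over all genes that reached the minimum, 13.7% were higher and 7.74% lower in Spic-/- cells, and 12.3% and 6.5% in control cells. For Ccr2, the ligand gene Ccl2 stood at 2098 FPKM in Spic-/- cells with LPS against 318 FPKM without LPS, and at 1927 FPKM in control cells with LPS against 271 FPKM without LPS. Ccl7 and Ccl12, further Ccr2 ligand genes, had LPS log2 ratios of 2.78 and 2.40 in Spic-/- cells and of 2.99 and 2.84 in control cells. For Ccr1, Ccl3 stood at 21377 FPKM in Spic-/- cells with LPS against 217 FPKM without LPS, and at 15889.5 FPKM in control cells with LPS against 179 FPKM without LPS. Ccl4, Ccl5 and Ccl9 were also at least 2-fold higher in each genotype. Ccl6 and Ccl8, also on the ligand list, were not higher with LPS. Their log2 ratios were −0.13 and −0.14 in Spic-/- cells and −0.06 and −0.05 in control cells. Cxcl12, the Cxcr4 ligand gene, was under 2-fold apart by LPS as well. In Spic-/- cells Cxcl12 stood at 56.3 FPKM with LPS against 49.5 FPKM without LPS. In control cells Cxcl12 stood at 100.9 FPKM with LPS against 91.6 FPKM without LPS. Between genotypes, 1 of the 12 ligands was 2-fold apart without LPS, Ccl12, at 12.3 FPKM in Spic-/- cells against 5.27 FPKM in control cells, and none with LPS. The called share of all genes was 0.902% without LPS and 0.892% with LPS.

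Among the proteins that release fractalkine, Rhbdf2, which matures Adam17, stood at 129 FPKM in Spic-/- cells with LPS against 21.8 FPKM without LPS, and at 116 FPKM in control cells with LPS against 17.6 FPKM without LPS. Adam17 itself was at 102 FPKM with LPS against 62.6 FPKM without LPS in Spic-/- cells, and at 80.2 FPKM with LPS against 47.7 FPKM without LPS in control cells. Adam10 was at 25.8 FPKM with LPS against 38.4 FPKM without LPS in Spic-/- cells, and at 24.1 FPKM with LPS against 39.0 FPKM without LPS in control cells. Of the 4 genes of this list that reached the minimum, Rhbdf2 alone was 2-fold apart. With LPS, 21.4% of all genes were called in Spic-/- cells and 18.8% in control cells.

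Of 28 genes of receptor signalling and desensitisation, 5 were at least 2-fold higher with LPS and 4 lower in each genotype, with median log2 ratios of 0.09 in Spic-/- cells and 0.05 in control cells. Among all genes that reached the minimum, 13.7% were higher and 7.74% lower in Spic-/- cells, and 12.3% and 6.5% in control cells. Between genotypes none of the 26 that reached the minimum was 2-fold apart, where 0.892% of all genes were called with LPS and 0.902% without LPS. The G protein brake gene Rgs16 had an LPS log2 ratio of 2.45 in Spic-/- cells and 2.54 in control cells, and Rgs1 had 1.54 and 1.02. Rgs2 had −2.54 and −2.82, and Rgs18 had −1.72 and −1.91. Pik3r5, a subunit gene of the G protein-driven PI3 kinase, had 2.37 and 2.53, and the beta-arrestin gene Arrb1 had −1.73 and −1.62.

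Other chemoattractant receptors also went both ways with LPS. In Spic-/- cells 3 of 10 that reached the minimum were at least 2-fold higher and 5 lower, and in control cells 3 of 9 were higher and 2 lower. The shares over all genes were 13.7% higher and 7.74% lower in Spic-/- cells, and 12.3% and 6.5% in control cells. The formyl peptide receptor gene Fpr1 stood at 253 FPKM in Spic-/- cells with LPS against 25.9 FPKM without LPS, and at 231 FPKM in control cells with LPS against 21.8 FPKM without LPS. Fpr2 had LPS log2 ratios of 3.17 in Spic-/- cells and 3.69 in control cells, and the platelet-activating factor receptor gene Ptafr had 1.66 and 1.73. Lower with LPS were Gpr183 (−3.34 and −3.33), the sphingosine phosphate receptor gene S1pr2 (−1.93 and −1.89) and, in Spic-/- cells, a C5a receptor gene, Gpr77 (−2.39). Gpr77 did not reach the minimum in control cells. The other C5a receptor gene, C5ar1, had LPS log2 ratios of −0.08 in Spic-/- cells and 0.10 in control cells.

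Genes with the most similar pattern were found by the Euclidean distance between log2(FPKM + 1) values centred over the 4 libraries, among 7687 named genes. For Ccrl2 the nearest were Ccl4, Tnf and Irg1, at distances of 0.222, 0.245 and 0.481. For Cx3cl1 they were Adm (0.171), Pfkfb3 (0.533) and Rhou (0.600). In Spic-/- cells Adm stood at 27.4 FPKM with LPS against 1.12 FPKM without LPS. In control cells Adm stood at 41.5 FPKM with LPS against 2.18 FPKM without LPS. Its lower level in Spic-/- cells in each state follows from its choice as the gene nearest to Cx3cl1. For Cx3cr1 they included Fos (0.352) and Dhcr7 (0.381), for Ccr1 Siglec1, Fkbp1b and Fcgr1 (0.0561 to 0.0927), for Ccr2 Pla2g15, Id1 and Scamp5 (0.0257 to 0.0404) and for Cxcr4 Paqr7, Inpp5d and Rassf3 (0.0946 to 0.161). With a pseudocount of 5 FPKM, Adm stayed nearest to Cx3cl1, and none of the other named neighbours was kept among the first 3.

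The genes lie on 3 chromosomes in GRCm38. Cx3cl1 is at chr8:94772009-94782427, Cxcr4 at chr1:128588199-128592293, and the remaining 4 are on chromosome 9. Ccr1 (chr9:123962124-123968692) and Ccr2 (chr9:124101950-124113557) belong to a receptor cluster that also holds Ccr1l1 and Ccr3, whereas Ccrl2 (chr9:111054486-111057519) lies 13.05 Mb from Ccr2 and Cx3cr1 (chr9:119901616-120069879) 4.20 Mb from it. Of the 50-base windows of a Ccr2 transcript, 4.96% also occur in transcripts outside the Ccr2 gene, so part of the Ccr2 fragments could not be assigned by sequence alone. For Ccr1, Ccrl2, Cxcr4, Cx3cr1 and Cx3cl1 no such window occurred in a transcript of another gene. The annotated span of Cx3cr1 includes other genes on each strand, among them Csrnp1 on the same strand, at 80.3 FPKM with LPS against 3.25 FPKM without LPS in Spic-/- cells. No exon of those present in the files overlaps an exon of Cx3cr1. An annotated antisense gene, Gm33858, does overlap one and was not analysed here, and the sources used here do not say whether counting used strand.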

How the data were processed

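Each library's gene values were deposited as FPKM by the authors, with TruSeq stranded mRNA libraries per the labels' protocols. The genome build was mm10 and the tools named were Cuffnorm 2.2.1, TopHat2 2.0.13, SAMtools 0.1.19 and Bowtie2 2.2.3, per the submitters' processing notes. Their settings and the gene annotation are not given in the sources used here. Groups came from the source names in the labels. No further scaling was applied. Pairs of single libraries were compared as log2 ratios after adding 1 to each FPKM, with Python 3.11.15, numpy 2.4.6, pandas 2.3.3 and scipy 1.17.1. They understate the differences of low genes. Genes needed 5 FPKM in at least 1 library of a comparison.

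Depth was estimated on 3607 single-transcript genes of GENCODE vM21, with values under 0.3 FPKM taking 210 bases off the exonic length. Of low estimates, 73.1% to 76.3% lay within 0.1 of a whole fragment. Fragments of a gene were taken over its shortest principal coding transcript. Ratio intervals are exact (Clopper-Pearson) and level intervals exact Poisson intervals. The calculation was tested on simulated data.

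All 6 genes were named. Some genes that the naming rules selected are not reported here. From each pathway list, up to 6 genes of at least 5 FPKM that were 2-fold apart in any comparison were eligible, and other listed genes in the text were chosen after their values were seen. The members and lists were chosen with earlier results of these data known. Alternatives changed the pseudocount, the minimum, the threshold or the scaling, or left out small RNA and unnamed genes.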

Additional observations from a re-analysis of the deposited data

How the results depend on the processing

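No paired analysis was possible because each group has 1 library, and no replicate could be left out for the same reason. Of the 24 log2 ratios of the 6 genes, 23 kept their sign under pseudocounts of 0.1 and 5 FPKM and under median-ratio and upper-quartile scaling; the exception was Ccr2 between genotypes without LPS, which ranged from −0.02 to 0.08. Upper-quartile scaling moved the median log2 ratio of all genes with LPS to −0.16 in Spic-/- cells, against 0.12 as deposited, and to −0.15 in control cells, against 0.11. The higher share of calls was 44.3% against 63.9% as deposited in Spic-/- cells, and 47.7% against 65.5% in control cells. Between genotypes that share was 39.1% against 55.2% with LPS and 43.3% against 54.3% without LPS. With a pseudocount of 5 FPKM the members called with LPS in Spic-/- cells numbered 3 in place of 5, and with a minimum of 20 FPKM 2 were called in each genotype, where 5 and 4 had been called, since only Cx3cl1, Ccrl2 and Ccr1 reach that level in a library. A pseudocount of 0.1 FPKM, or a 1.5-fold threshold, called 1 member between genotypes without LPS and 1 member in the difference of LPS responses, Cx3cr1 in each case, where 0 had been called. The 1.5-fold threshold also called 2 members between genotypes with LPS, Cx3cl1 and Ccrl2. Listed pathway genes 2-fold apart between genotypes without LPS numbered 0 in place of 1 with a pseudocount of 5 FPKM, with upper-quartile scaling, with a minimum of 20 FPKM and at 3-fold. At 1.5-fold they numbered 6 without LPS, 3 with LPS in place of 0, and 34 with LPS in control cells in place of 22.

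Of all genes, the called percentages in the order LPS in Spic-/- cells, LPS in control cells, genotype with LPS and genotype without LPS were 42.3, 38.2, 4.55 and 3.12 at 1.5-fold, 10.3, 9.28, 0.386 and 0.425 at 3-fold, and 9.08, 7.86, 0.455 and 0.374 with no minimum. With a pseudocount of 5 FPKM the genotype percentages were 0.573 with LPS and 0.515 without LPS, and without small RNA and unnamed genes 0.58 without LPS. Depth limits the low receptors most: with LPS, Cxcr4 rested on about 5 and 7 fragments and Cx3cr1 on 10 and 15, in Spic-/- and control cells.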
